A study of Mus musculus with 12 samples.

Results

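The zinc finger genes numbered Zfp900 to Zfp999 were followed through differentiation of mouse embryonic stem cells with and without knockdown of cathepsin L (CTSL), a cysteine protease. Members were the rows of the read count table whose gene symbol is Zfp9 followed by 2 digits, which gave 55 of 24495 genes. The symbol alone chose them, but Zfp951 was already known from these data to be lower in the knockdown. The RNA-seq series holds 12 libraries of poly(A) RNA from CCE-Nanog-GFP mESCs, a mouse embryonic stem cell line with a Nanog-GFP reporter, sorted for GFP before the experiments. The control line shSC carried a scrambled shRNA and the knockdown line shCTSL carried an shRNA against CTSL, both from a lentiviral vector under puromycin selection. Undifferentiated mESCs gave the Day 0 libraries, and embryoid bodies (EBs) grown without LIF and with all-trans retinoic acid gave those of Day 2 and Day 4, with 2 biological replicates per group. The libraries represent 1 line per shRNA, so the shRNA and any other difference between the lines cannot be told apart.

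Zfp symbols mark genes for C2H2 zinc finger proteins, in which tandem fingers read DNA bases. Many of the numbered mouse Zfp genes encode KRAB zinc finger proteins, whose KRAB domain recruits Trim28 and, through it, the histone H3 lysine 9 methyltransferase Setdb1. In embryonic stem cells this machinery is known for silencing endogenous retroviruses and for protecting imprinted loci. The genes have multiplied by tandem duplication, so that close relatives lie side by side in clusters.

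The members were spread over 12 chromosomes, with 13 on chromosome 17, 10 on chromosome 4, 9 on chromosome 2 and 8 on chromosome 7. RefSeq promoters (250 bases before to 50 after the annotated start, GRCm38.p6) were found for 50 of the 55 members. The promoters of Zfp979, Zfp980, Zfp981, Zfp982 (at 1 of its starts), Zfp984, Zfp985 and Zfp987 were 66.3% to 89.7% identical to each other (21 pairs, median 79%). The 1622 other pairs of member promoters had a median identity of 46% and a maximum of 100%. High identity was not particular to the chromosome 4 genes. On chromosome 2, the promoters of Zfp966 and Zfp967 were 100% identical, and those of Zfp965 and Zfp971 were 97% identical. Zfp933 is the next member along chromosome 4, and its promoter was 44.7% to 47.3% identical to those of the 7 genes named first. The promoters of Zfp979, Zfp985 and Zfp987 are given with that of Zfp933 to show the shared and the unrelated sequence, each read 5′ to 3′ on the strand of its gene. Capitals mark the only runs of at least 10 bases that all 7 related promoters shared. Zfp933 holds neither run and so has no capitals.
Zfp979, chr4:147642459-147642758, minus strand: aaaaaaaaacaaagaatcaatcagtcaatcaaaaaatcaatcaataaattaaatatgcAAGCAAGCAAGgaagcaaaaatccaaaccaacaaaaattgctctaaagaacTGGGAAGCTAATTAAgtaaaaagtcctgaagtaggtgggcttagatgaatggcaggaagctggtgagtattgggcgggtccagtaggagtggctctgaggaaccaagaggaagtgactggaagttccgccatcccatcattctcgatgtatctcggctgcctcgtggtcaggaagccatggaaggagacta
Zfp985, chr4:147553027-147553326, plus strand: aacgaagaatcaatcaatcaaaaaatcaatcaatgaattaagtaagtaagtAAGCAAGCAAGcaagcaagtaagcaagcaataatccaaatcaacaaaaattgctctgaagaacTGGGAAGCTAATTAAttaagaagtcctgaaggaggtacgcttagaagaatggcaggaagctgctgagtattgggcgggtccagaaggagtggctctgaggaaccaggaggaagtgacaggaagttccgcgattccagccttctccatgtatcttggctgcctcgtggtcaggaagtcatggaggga
Zfp987, chr4:146097062-146097361, plus strand: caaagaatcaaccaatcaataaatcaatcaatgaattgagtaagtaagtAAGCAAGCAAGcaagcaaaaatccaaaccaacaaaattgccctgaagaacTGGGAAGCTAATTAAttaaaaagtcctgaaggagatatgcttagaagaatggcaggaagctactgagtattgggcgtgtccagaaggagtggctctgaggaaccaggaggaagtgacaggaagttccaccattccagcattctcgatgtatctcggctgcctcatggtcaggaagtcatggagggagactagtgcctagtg
Zfp933, chr4:147848369-147848668, minus strand: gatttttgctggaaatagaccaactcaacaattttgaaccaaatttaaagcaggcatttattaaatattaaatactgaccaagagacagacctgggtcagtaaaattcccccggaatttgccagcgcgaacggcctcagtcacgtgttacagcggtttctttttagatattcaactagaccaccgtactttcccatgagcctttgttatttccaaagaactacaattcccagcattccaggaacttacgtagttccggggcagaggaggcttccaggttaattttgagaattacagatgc

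The longer shared run, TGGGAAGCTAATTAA, was present on either strand in the promoters of 12 of 27025 genes searched (0.0444%). The shorter one, AAGCAAGCAAG, was present in 38 genes (0.141%). Both runs together were found in 11 genes, of which 7 were the members named above, whose promoters defined the runs. The other 4 were Rex2, Zfp534, Zfp600 and Zfp988, which are zinc finger genes too. Common promoter motifs were counted in the same way, on both strands. The CCAAT box (CCAAT) was present in 38 of 50 members and in 41.1% of all genes, and all 7 related promoters held it. The TATA box (TATAAA) was present in 0 of 50 members and in 15.7% of all genes. The ETS core (CGGAAG) was present in 18 of 50 members against 18.8% of all genes, and in none of the 7 related promoters. These are letter matches in a window, and binding was not measured.

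The libraries held 11171111 to 27155553 counts. The members took 0.145% to 0.178% of all counts at Day 0 and 0.0787% to 0.104% on Days 2 and 4. The pluripotency markers Nanog, Pou5f1, Sox2, Zfp42 and Esrrb fell and the differentiation markers Gata6, Gata4, Sox17 and Kdr rose between Day 0 and Day 4 in both lines (edgeR). Ctsl, the target of the shRNA, was at 142 ± 7.15 CPM (SD, n = 2; CPM is the count scaled to the size of the library) in shSC and 38.4 ± 1.23 CPM in shCTSL at Day 0. On Day 4 the corresponding levels were 453 ± 42.9 and 255.0 ± 3.31. The log2 difference was -1.89 at Day 0 (adjusted p = 0.00246), -1.06 on Day 2 (adjusted p = 0.0342) and -0.83 on Day 4 (adjusted p = 0.0896, not called). The 2 shCTSL Day 2 libraries differed from each other more than any other pair, with an SD of the log2 ratio over tested members of 0.515 against 0.178 to 0.289 in the other groups. In bulk libraries such as these, fewer cells of a type and less RNA per cell cannot be told apart.

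Related copies limit what short reads can assign. The authors removed alignments with a mapping quality under 10, so that reads fitting several copies were lost. Of all 75-base windows in the exons of Zfp965, Zfp966 and Zfp967, 0% occurred once in the genome (mm9), and these 3 members of chromosome 2 had 0 counts in all 12 libraries. Zfp991 had 6 counts in all, Zfp957 had 25 and Zfp973 had 1. Zfp957 had 98.2% unique windows, so its low count was not accompanied by repeated sequence, while Zfp991 on chromosome 4 had 14.6%. These 6 members did not pass the filter on low counts, which left 49 tested members among 15532 tested genes. On chromosome 4 the share of unique windows was 14.8% in Zfp987, 24.9% in Zfp980, 37.4% in Zfp982, 39.3% in Zfp992, 53.8% in Zfp979, 55.9% in Zfp984, 65.3% in Zfp981 and 93% in Zfp985. Reads from the other windows could be lost, so levels of genes with few unique windows may be too low.

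In undifferentiated control cells, the members with the highest level per length were Zfp936 at 105 RPKM (CPM per kilobase of exon), Zfp985 at 67.1, Zfp979 at 64.6, Zfp930 at 59.5, Zfp961 at 48.2 and Zfp984 at 36.7. By Day 4 the highest levels in shSC were those of Zfp930 at 38.5 RPKM, Zfp961 at 21.8 and Zfp950 at 17.6, while Zfp936 was at 13 and Zfp979 at 9.59. The order between genes was not tested. Lengths came from GENCODE M1 models, which are not the RefSeq models the authors counted over.

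Differentiation changed most of the members in one line or both. A gene was called where the adjusted p (Benjamini-Hochberg over all tested genes) was under 0.05 and the change was at least 1.5-fold, in edgeR's quasi-likelihood test. In shSC, 13 of 49 members rose from Day 0 to Day 4 (26.5%, against 32.1% of all tested genes) and 15 fell (30.6%, against 28.7%). These shares lay near the background. In shCTSL, 7 members rose (14.3%, against 32.3%) and 22 fell (44.9%, against 27.6%). The median log2 fold change over the members was -0.27 in shSC and -0.41 in shCTSL, beside 0.03 and 0.06 over all tested genes. All 15 members that fell in shSC also fell in shCTSL, all 7 that rose in shCTSL also rose in shSC, and 0 moved in opposite directions.

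**Figure D1:**
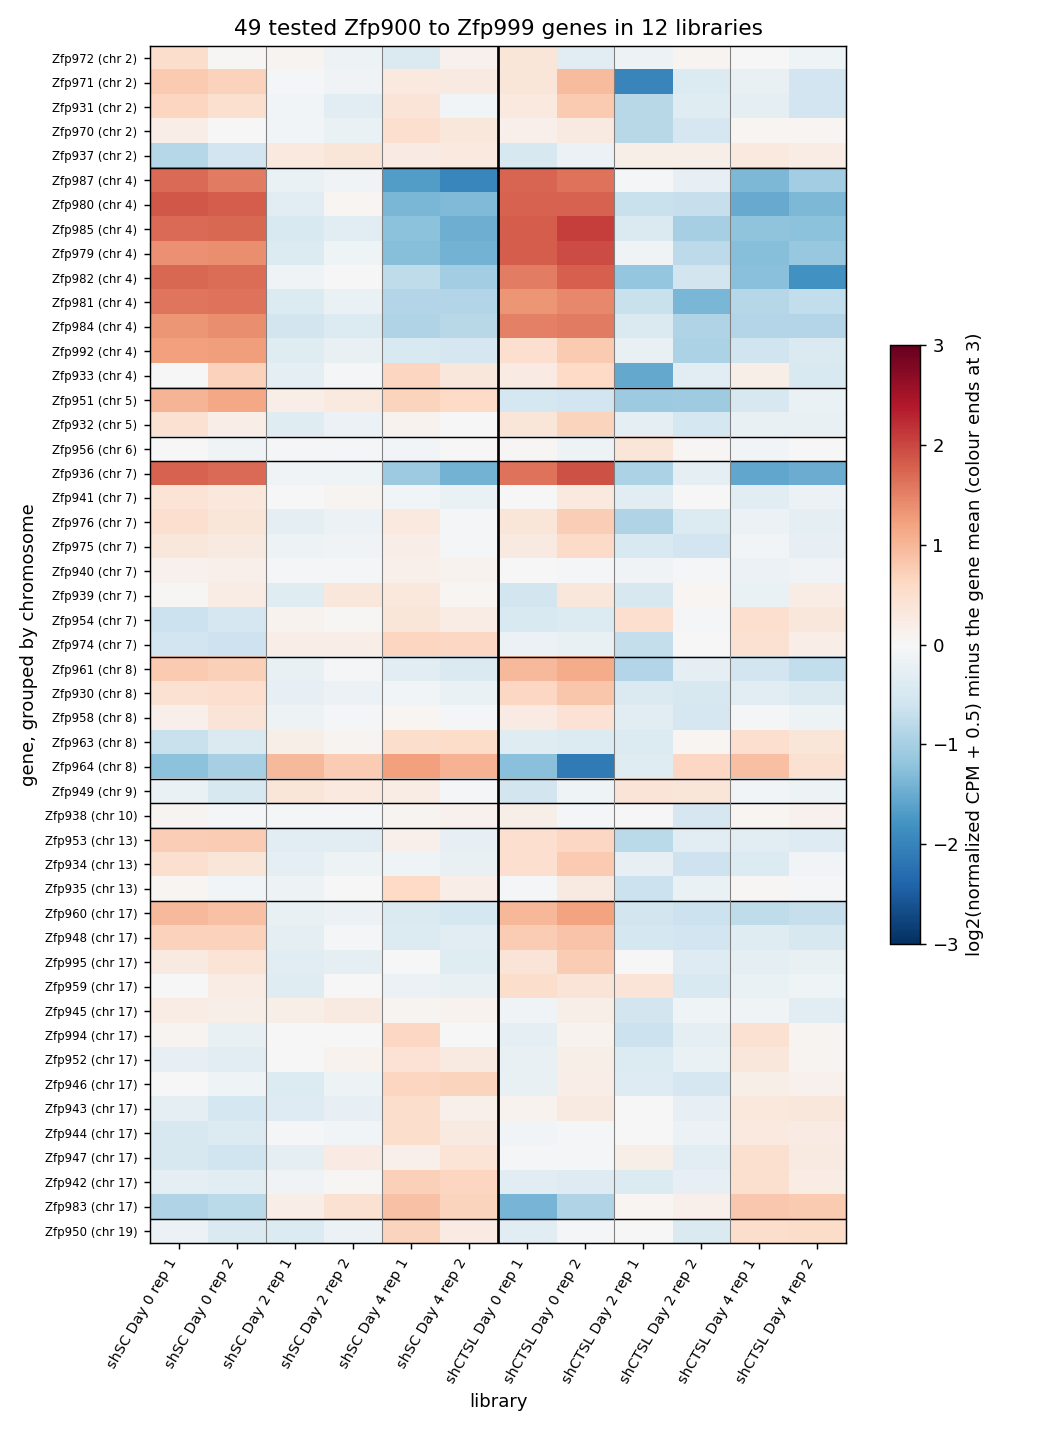
Levels of the 49 tested members (rows, grouped by chromosome) in the 12 libraries (columns), as log2(normalized CPM + 0.5) minus the mean of the gene over all libraries, with red above and blue below that mean. The chromosome 4 genes other than Zfp933, together with Zfp936 on chromosome 7, are red in all 4 Day 0 libraries and blue in all 4 Day 4 libraries.

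The largest falls were on chromosome 4. All 8 tested members between 145104787 and 147183895 of chromosome 4 (mm9) fell by Day 2 and by Day 4 in both lines, with a median log2 fold change from Day 0 to Day 4 of -2.72 in shSC and -3.15 in shCTSL. These genes have been described as part of a KRAB zinc finger cluster that acts on endogenous retroviruses in mESCs. Zfp979, the most abundant by CPM, was at 270 and 273 CPM in the 2 shSC Day 0 libraries, 78.1 and 94.2 on Day 2, and 42.1 and 38.5 on Day 4. In shCTSL it was at 365 and 405 CPM at Day 0, 96 and 60.3 on Day 2, and 42.4 and 46.8 on Day 4. The Day 0 libraries did not overlap with any later library in either line. From Day 0 to Day 4 it fell by 2.75 (SE 0.20) in shSC and by 3.11 (SE 0.20) in shCTSL on the log2 scale, with adjusted p = 1.05e-06 and 5.16e-07 in edgeR.

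Zfp985, the member with the most unique windows in this stretch, was at 192 and 194 CPM in shSC at Day 0, 42.3 and 47 on Day 2, and 24.4 and 20.8 on Day 4. In shCTSL its levels were 207 and 248, then 42.8 and 29.1, then 25.2 and 24.7 CPM. Its fall from Day 0 to Day 4 was -3.09 (SE 0.19, adjusted p = 2.81e-07) in shSC and -3.19 (SE 0.19, adjusted p = 2.51e-07) in shCTSL on the log2 scale. All 4 Day 0 libraries lay above every later library.

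Zfp980 was at 49.1 and 47.8 CPM in shSC at Day 0 and at 4.77 and 4.99 on Day 4, a log2 fold change of -3.31 in shSC and -3.32 in shCTSL. Zfp982 went from 40.1 and 39.2 CPM to 6.76 and 5.48 in shSC, with log2 fold changes of -2.68 and -3.33 in the 2 lines. Zfp981 and Zfp984 fell by 2.55 and 2.26 in shSC and by 2.23 and 2.44 in shCTSL on the log2 scale. Zfp992 fell least of the 8 in both lines, by 1.78 in shSC and by 1.22 in shCTSL. It is not among the 7 genes named for related promoters, and no identity of its own promoter is given here. Zfp987 had the largest fall in shSC, from 11.1 and 10 CPM to 0.619 and 0.416, which was -4.28 on the log2 scale (SE 0.24, edgeR adjusted p = 1.83e-07). Its Day 4 value rests on 14 and 6 counts in those libraries. In shCTSL it fell by 3.35 on the log2 scale, from 11.6 and 10.5 to 0.92 and 1.23 CPM.

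Zfp933, the neighbour with an unrelated promoter, was at 9.45 and 15.6 CPM in shSC at Day 0 and at 15.1 and 12.2 on Day 4. These libraries overlapped, and neither line passed the test from Day 0 to Day 4, with changes of 0.13 (SE 0.38, edgeR adjusted p = 0.782) in shSC and -0.56 (SE 0.39, adjusted p = 0.227) in shCTSL on the log2 scale. It was called lower on Day 2 in shCTSL alone (-1.27, adjusted p = 0.0187), where the 2 libraries were at 2.95 and 7.49 CPM. In the heatmap the row of Zfp933 therefore differs from those of the other 8 genes.

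**Figure D2:**
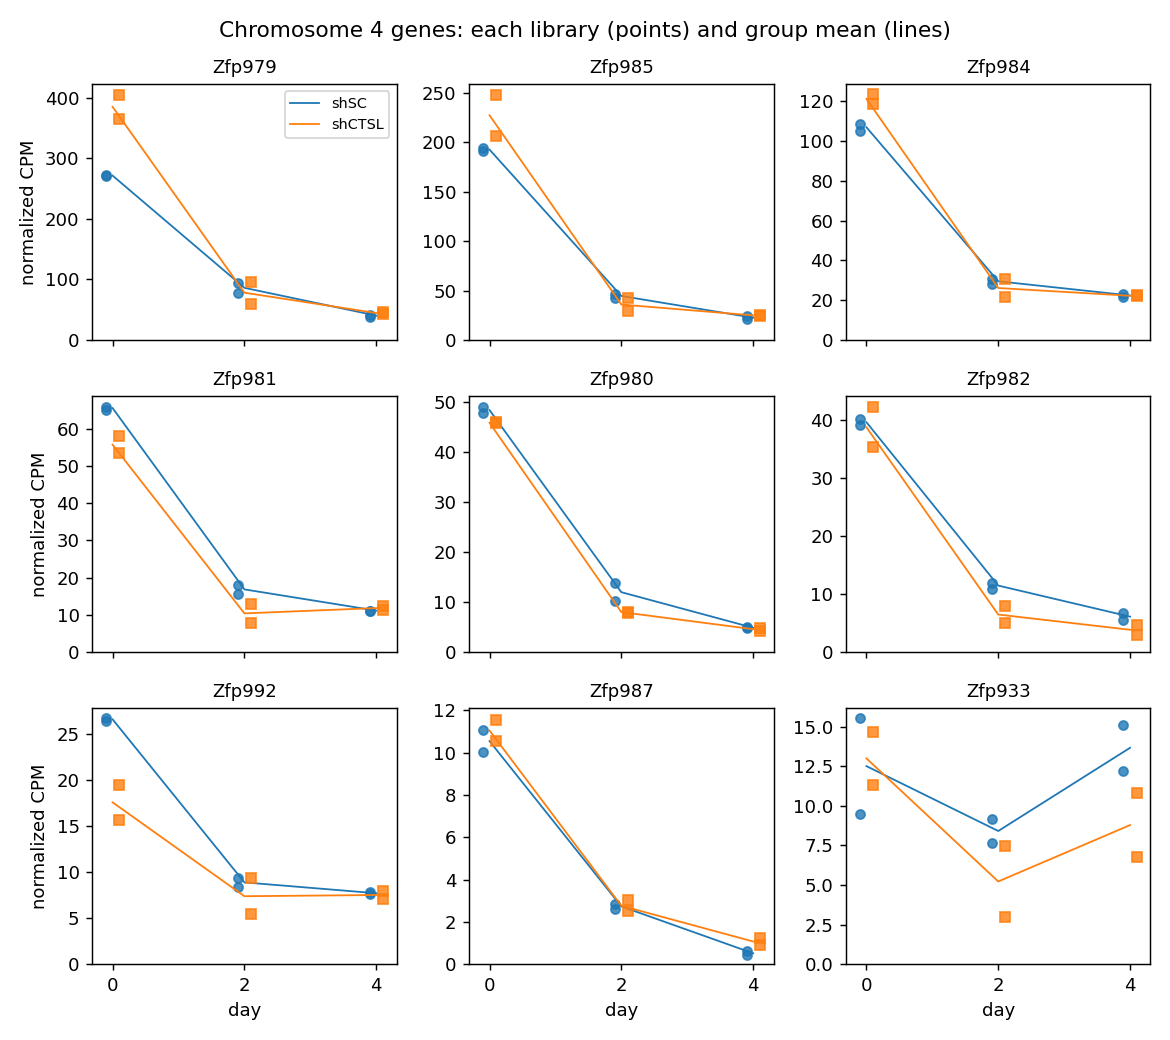
Normalized CPM (vertical axis, from 0) by day for the 9 tested chromosome 4 members, with circles for shSC libraries, squares for shCTSL libraries and lines through the group means. The first 8 genes drop between Day 0 and Day 2 in both lines, whereas the Zfp933 libraries of Day 0 and Day 4 overlap in shSC.

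The genes in between that carry other names behaved likewise. Of 8 genes that are no members and are positioned in the same stretch, 5 were tested, and all 5 fell from Day 0 to Day 4 in both lines (median log2 fold change -1.55 in shSC and -1.52 in shCTSL). They were Zfp534, Zfp600, Gm13212, Gm13034 and Znf41-ps, named after their values were seen. Zfp534 and Zfp600 hold both shared promoter runs. Gm13212, Gm13034 and Znf41-ps are not among the genes found to hold both, but whether their promoters were among those searched was not checked. These 3 genes changed by -1.46, -1.12 and -1.55 in shSC. Whether promoter sequence bears on the fall was not tested. Zfp534 was at 57.6 and 59.5 CPM in shSC at Day 0 and at 4.99 and 4.58 on Day 4 (log2 fold change -3.61), and Zfp600 went from 33.5 and 35.6 to 5.08 and 3.88 (-2.93). Averaged over the 3 days, Zfp600 was called lower in shCTSL than in shSC (-0.63, edgeR adjusted p = 0.0445), and the other neighbours tested were not called. Rex2 reached at most 0.991 CPM in any library and was not tested, and Zfp988 was not analysed here. Summed over the 9 chromosome 4 members without Zfp933, the level went from 758 and 765 CPM in the shSC Day 0 libraries to 119 and 112 on Day 4. This stretch held 43.2% and 44.1% of the summed CPM of all members at Day 0 in shSC, and 13.1% and 13.6% on Day 4.

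Outside chromosome 4, Zfp936 fell most. It was at 148 and 140 CPM in shSC at Day 0, 39.8 and 39.1 on Day 2, and 19.9 and 15.7 on Day 4. In shCTSL it was at 133 and 161, then 21.9 and 34.5, then 14.3 and 15 CPM. From Day 0 to Day 4 it fell by 3.01 in shSC and by 3.33 in shCTSL on the log2 scale (SE 0.21 for both, edgeR adjusted p = 7.61e-07 and 4.46e-07). Zfp976, also on chromosome 7, has a promoter 82.3% identical to that of Zfp936, and it changed by -0.31 (not called) in shSC and fell by 0.79 in shCTSL. Whether promoter sequence bears on the size of these changes was not tested.

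The other members that fell in both lines were Zfp961 and Zfp930 on chromosome 8, Zfp934 and Zfp953 on chromosome 13, and Zfp948 and Zfp960 on chromosome 17. Zfp961 was at 196 and 185 CPM in shSC at Day 0 and at 89.4 and 83.2 on Day 4, and at 222 and 243 against 75.2 and 67.2 in shCTSL (log2 fold changes -1.14 and -1.71). Zfp930 had the highest level per length on Day 4 in shSC although it fell by 0.63 in shSC and by 1.11 in shCTSL. Zfp960 fell by 1.47 and 1.92 and had 23.9% unique windows. Zfp932, a KRAB zinc finger gene known to act on endogenous retroviruses, changed by -0.28 (not called) in shSC and fell by 0.76 in shCTSL. It belongs to 7 members that were called lower in shCTSL alone, and the difference between the lines was not called for any of them.

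**Figure D3:**
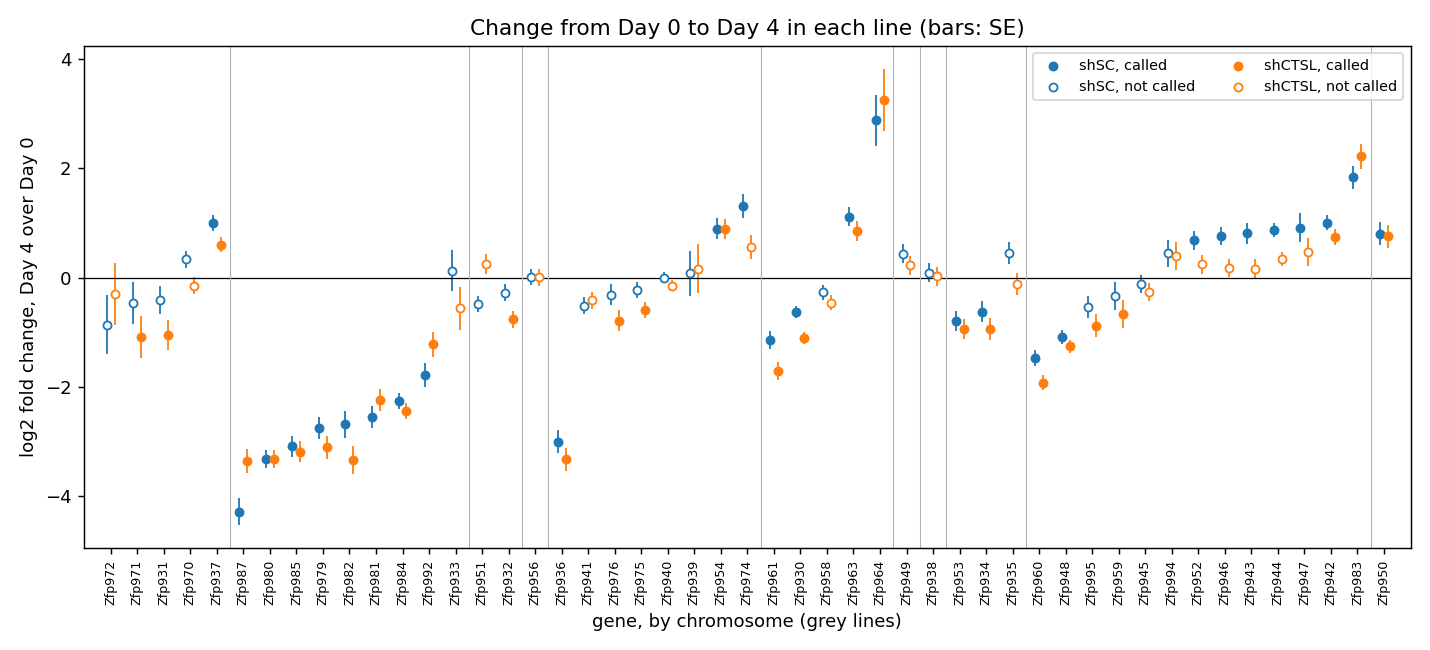
Log2 fold change from Day 0 to Day 4 (vertical axis) of each tested member, ordered by chromosome, in shSC (blue) and shCTSL (orange). Filled points were called, open points were not, and bars are standard errors. The 8 chromosome 4 genes and Zfp936 lie between -4.28 and -1.22, and Zfp964 and Zfp983 lie highest.

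A smaller set of members rose. Zfp964 on chromosome 8 was near the limit of detection in mESCs, at 0.61 and 0.805 CPM in the shSC Day 0 libraries, and reached 4.61 and 3.98 on Day 2 and 5.61 and 4.92 on Day 4. In shCTSL it was at 0.597 and 0.105, then 1.54 and 3.53, then 4.44 and 3.1 CPM. The lowest of these libraries held 1 count and the highest 139. Its log2 fold change from Day 0 to Day 4 was 2.87 (SE 0.47, adjusted p = 0.000312) in shSC and 3.25 (SE 0.57, adjusted p = 0.000547) in shCTSL. Zfp961 and Zfp930, which fell, are on the same chromosome.

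Zfp983 on chromosome 17 was at 2.29 and 2.48 CPM in shSC at Day 0, 5.58 and 6.65 on Day 2, and 9.15 and 7.84 on Day 4. In shCTSL it was at 1.49 and 2.32, then 4.98 and 5.36, then 8.77 and 8.56 CPM. It rose by 1.83 (SE 0.21, adjusted p = 2.4e-05) in shSC and by 2.22 (SE 0.22, adjusted p = 1.07e-05) in shCTSL on the log2 scale, with no overlap between days in either line. Zfp963, Zfp942, Zfp937, Zfp954 and Zfp950 also rose in both lines, by 0.80 to 1.11 in shSC and by 0.60 to 0.89 in shCTSL. Zfp974 rose by 1.31 in shSC, from 5.49 and 5.27 to 13.5 and 13.2 CPM, and changed by 0.56 (adjusted p = 0.0434, under the fold limit) in shCTSL. The rise of Zfp950 in shCTSL was not called without the first shCTSL Day 0 library (0.60, adjusted p = 0.0842).

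Chromosome 17 holds the most members, at several places along the chromosome. Of its 13 tested members, 7 rose and 2 fell from Day 0 to Day 4 in shSC, beside 32.1% and 28.7% of all tested genes, with a median log2 fold change of 0.68. In shCTSL, 2 rose and 4 fell, beside 32.3% and 27.6%, with a median of 0.17. Zfp943, Zfp944, Zfp946, Zfp947 and Zfp952 were called higher in shSC only. The test of the difference between the lines was not called for any chromosome 17 member (smallest adjusted p = 0.668), although 12 of 13 had a more negative change in shCTSL. Of the other numbered Zfp genes, 250 of 316 also had a more negative change in shCTSL, beside 7497 of all 15532 tested genes.

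Most of the fall took place in the first interval. From Day 0 to Day 2, 20 members fell in shSC (40.8%, against 25.3% of all tested genes) and 7 rose (14.3%, against 29.3%). In shCTSL 25 fell (51%, against 24.6%) and 4 rose (8.16%, against 30.9%). The largest falls in shSC were those of Zfp985 (-2.11), Zfp980 (-2.02) and Zfp981 (-1.96), and the largest rises were those of Zfp964 (2.58), Zfp983 (1.35) and Zfp937 (1.06). From Day 2 to Day 4, 7 members fell in shSC (14.3%, against 12.4%) and 5 rose (10.2%, against 11.4%), which was close to the background. In shCTSL 5 fell (10.2%, against 12.4%) and 9 rose (18.4%, against 11%) in the same interval.

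The falls from Day 2 to Day 4 in shSC were led by Zfp987 (-2.33), Zfp980 (-1.30) and Zfp936 (-1.14), which had already fallen by Day 2. The rises were led by Zfp946 (0.98), Zfp950 (0.79) and Zfp942 (0.73), none of which had been called by Day 2. In shSC the rise of Zfp950 was 0.67 without the first Day 2 library and 0.55 without the first Day 4 library, and its call was lost each time. The number of called members in this interval also depended on single libraries in both lines.

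Between the lines, 1 member was called, Zfp951. Its lower level in shCTSL was known from these data before the members were chosen, so its p-values describe a difference already seen. Zfp951 lies on chromosome 5 (chr5:105242366-105246371, minus strand, mm9), where 86.8% of its exon windows were unique. It is shown by the promoter at the first of its 2 RefSeq starts, with capitals for matches to the ETS core (CGGAAG, or CTTCCG on the other strand). That motif is absent from the related chromosome 4 promoters but present in 18 of 50 members, among them Zfp936.
Zfp951, chr5:104859978-104860277, minus strand: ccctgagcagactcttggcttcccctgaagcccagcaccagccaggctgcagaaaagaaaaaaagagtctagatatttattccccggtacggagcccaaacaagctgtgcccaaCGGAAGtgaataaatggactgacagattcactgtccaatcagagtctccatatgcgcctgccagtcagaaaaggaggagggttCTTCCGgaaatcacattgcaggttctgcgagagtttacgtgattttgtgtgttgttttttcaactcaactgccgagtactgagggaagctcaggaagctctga

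Zfp951 was at 11.5 and 12.7 CPM in the shSC Day 0 libraries and at 3.58 and 3.48 in those of shCTSL. On Day 2 it was at 6.24 and 6.7 in shSC and at 2.28 and 2.3 in shCTSL. On Day 4 it was at 8.88 and 8.39 in shSC and at 3.73 and 4.67 in shCTSL. Every shSC library lay above every shCTSL library, across all days. The libraries held 33 to 205 counts of the gene.

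The log2 difference between the lines, shCTSL minus shSC, was -1.49 on Day 2 (SE 0.17, adjusted p = 0.0195) and -1.04 on Day 4 (SE 0.16, adjusted p = 0.0858, not called). The mean of the 3 days was -1.44 (SE 0.10, adjusted p = 0.000198, edgeR). The call at Day 0 (-1.78) was lost without the second shSC library (adjusted p = 0.0879) or without the first or second shCTSL library (adjusted p = 0.154 and 0.129). The call at Day 2 was lost without the first or second shSC Day 2 library (adjusted p = 0.2 and 0.307), and when only the compared libraries were fitted (adjusted p = 0.708). Without both shCTSL Day 2 libraries, Day 4 was called (-1.03, adjusted p = 0.000726). The call for the mean of the days held with each library left out (adjusted p from 1.25e-07 to 0.00298).

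Zfp951 itself changed during differentiation. In shSC it fell by 0.91 on the log2 scale from Day 0 to Day 2 (adjusted p = 0.000461) and changed by 0.42 from Day 2 to Day 4 (adjusted p = 0.0625). In shCTSL it fell by 0.62 and then rose by 0.88 (adjusted p = 0.0154 and 0.00448). This fall was no longer called without the first shCTSL Day 2 library. The change from Day 0 to Day 4 differed between the lines by 0.74 (SE 0.24, adjusted p = 0.635), which was not called. Of 8 tested genes within 500 kb of Zfp951, among them Spp1, Pkd2 and 3 guanylate-binding protein genes (Gbp4, Gbp8, Gbp9), 0 were called between the lines on any day or in the mean of days in edgeR. Their log2 differences in the mean of days ran from -0.45 to 0.65, with 0 at an unadjusted p under 0.05, and 2 were under it on Day 4.

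**Figure D4:**
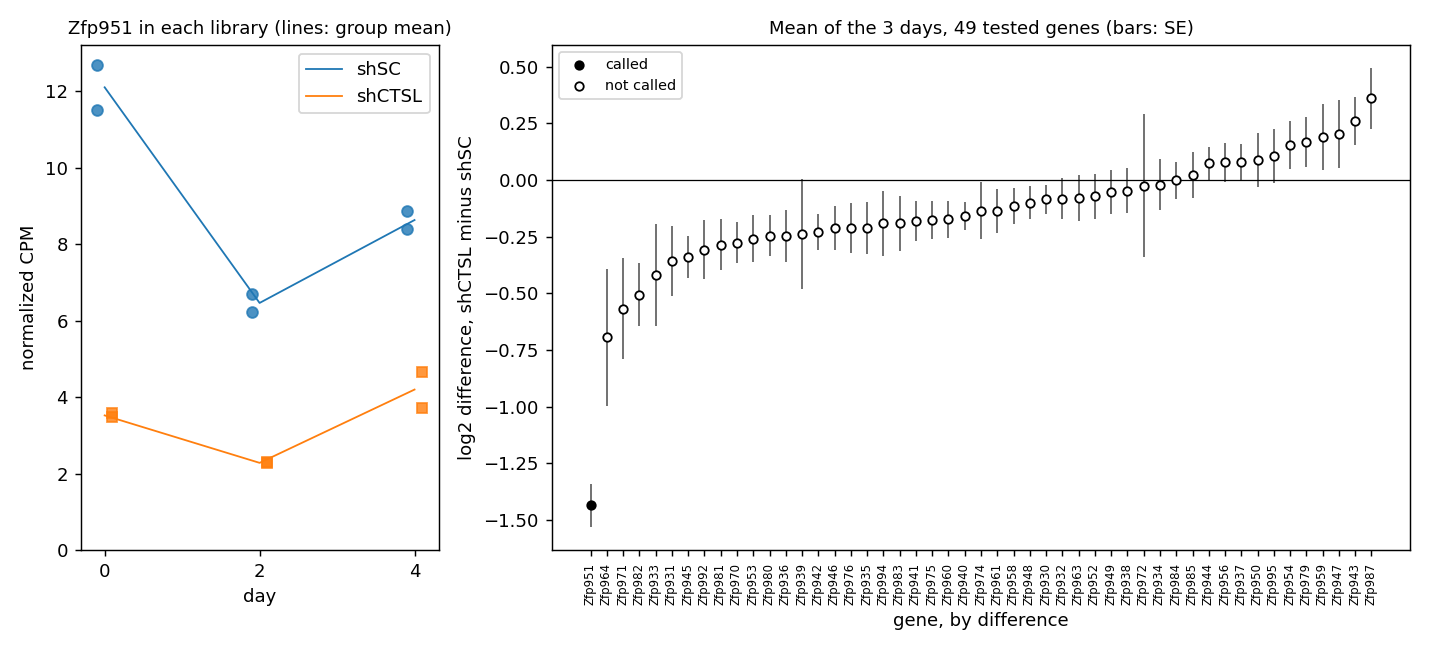
Left, normalized CPM of Zfp951 (vertical axis, from 0) by day in each library, with lines through the group means. Right, log2 difference between the lines averaged over the 3 days for the 49 tested members in order of size, with standard errors. Zfp951 at -1.44 is the only filled (called) point, and the others lie between -0.69 and 0.36.

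Among all tested genes, 0.0386% were called at Day 0, 0.0644% on Day 2, 0.0129% on Day 4 and 0.27% in the mean of days, against 1, 1, 0 and 1 of the 49 members. An unadjusted p under 0.05 was reached by 6 members at Day 0 (7.26% of all tested genes), 15 on Day 2 (19.4%), 8 on Day 4 (12.2%) and 15 in the mean of days (22.6%). DESeq2 called Zfp951 and Zfp981 on Day 2 (0.805% of all tested genes) and Zfp951 on Day 4 (0.85%). In the mean of days 37 of 49 members were lower in shCTSL, beside 235 of the 316 other numbered Zfp genes and 7735 of all 15532 tested genes, with a median difference of -0.14. After Zfp951, the members with the smallest p were Zfp945 (-0.34, adjusted p = 0.133), Zfp982 (-0.51, adjusted p = 0.136), Zfp970 (-0.28, adjusted p = 0.171), Zfp942 (-0.23, adjusted p = 0.183) and Zfp980 (-0.25, adjusted p = 0.19). None of these passed the test. Zfp982 was called without the second shCTSL Day 2 library (-0.64, adjusted p = 0.000114). Without that library 14 members were called lower on Day 2 and 5 in the mean of days, where 16.5% and 5.32% of all genes tested were called lower. Without the first shCTSL Day 2 library 3 members were called lower on Day 2, against 0.447% of all genes tested. Leaving out the first or the second gave 2 called members at Day 0, against 1.33% and 1.35% of all genes tested, and 6 on Day 4, against 5.82% and 5.83%.

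In 6 members the lines did not overlap on any of the 3 days and shCTSL was lower each time, against 4.6% of all tested genes. They were Zfp951, Zfp940, Zfp964, Zfp953, Zfp942 and Zfp945. The converse held for 0 members, against 2.61%. On Day 2 alone, 29 of 49 members were lower in both shCTSL libraries than in both shSC libraries (22.7% of all tested genes), and 2 were higher (22.7%). On Day 4, 24 were lower (31.5%) and 4 were higher (30%), while at Day 0 10 were lower (28.6%) and 17 were higher (22.7%). Without both shCTSL Day 2 libraries, 1 member was called higher on Day 4 (Zfp987, 1.01) and 5 were called lower (Zfp951, Zfp971, Zfp931, Zfp982 and Zfp933, at -1.03 to -0.65), against 5.89% of all genes tested there in either direction. In the same fit Zfp992 joined Zfp951 as lower at Day 0 (-0.60, adjusted p = 0.0135), where 1.37% of all genes tested were called.

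The change from Day 0 to Day 4 was compared between the lines as an interaction. Of the 49 members, 0 were called (0.00644% of all tested genes were), 9 had an unadjusted p under 0.05 (6.71% of all), and DESeq2 called 0. The member differences ran from -0.75 (Zfp974) to 0.93 (Zfp987), and 40 of 49 were negative.

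Cofactors of KRAB zinc finger proteins and other Zfp genes were measured in the same libraries. In a list of 20 cofactor genes, 11 fell and 0 rose from Day 0 to Day 4 in shSC, and 12 fell and 0 rose in shCTSL, with medians of -0.67 and -0.82. Of all tested genes, 28.7% and 27.6% fell. Trim28, the corepressor that KRAB domains bind, fell by 1.58 in shSC, and Setdb1 fell by 0.74. Uhrf1 and Dnmt1, which maintain DNA methylation, fell by 2.17 and 1.07 in shSC. Between the lines, 0 of the 20 were called on any day or in the mean of days (edgeR), and 7 had an unadjusted p under 0.05 in the mean of days. In shSC, 105 of the 316 other numbered Zfp genes tested were called higher (33.2%, against 32.1% of all tested genes). Fewer were called lower than in the background, at 55 (17.4%, against 28.7%), with a median of 0.22. In shCTSL, 80 were called higher (25.3%, against 32.3%) and 74 lower (23.4%, against 27.6%), with a median of 0.00. Among 9 tested genes of a list of 10 other KRAB zinc finger genes, 3 rose and 4 fell in shSC, beside 32.1% and 28.7% of all tested genes. Zfp57, which protects imprinted loci, fell from 773 ± 24.3 to 116 ± 8.78 CPM (SD, n = 2, log2 fold change -2.74).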

How the data were processed

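RNA was poly(A)-selected, DNase-treated and made into directional libraries. Per the submitters' notes and methods, the authors checked reads with FastQC 0.11.2, mapped them on mm9 with STAR 2.3.0e, used SAMtools 0.1.19 to drop alignments of mapping quality below 10 and those on mitochondria or unplaced contigs, and counted fragments per RefSeq gene with featureCounts 1.6.2. The deposited values are whole-number counts per gene, not normalized. The sources used here do not give the strand setting of the counting. All 12 count columns were used.

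From these counts, edgeR 4.0.16 (R 4.3.3) kept genes passing filterByExpr (minimum count 10), scaled by TMM and fitted 1 mean for each of 6 groups over all libraries (6 residual degrees of freedom). P-values were Benjamini-Hochberg adjusted over all tested genes. They rest on replicate spread pooled over all 6 groups, so the more variable shCTSL Day 2 pair enters every test. The study describes the 2 libraries of a group as biological replicates. CPM values are TMM-scaled. The SE of a log2 fold change was its size over the square root of F. DESeq2 1.42.0 was an alternative. The script was tested on simulated counts. Positions, exon lengths and exon windows of 75 bases came from GENCODE M1 on mm9, matched by symbol for 33 members and by another name for 20. Promoters came from RefSeq GRCm38.p6 and were compared with edlib (identity is 100% minus edits per 300 bases).

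Named are Zfp951 and members called between lines, the 6 largest rises and falls from Day 0 to Day 4 in each line, the 3 largest in each shorter shSC interval, the 6 highest mean CPM, the 6 smallest p in the mean of days, and members failing the filter, with others named to complete a count. The members and lists were chosen with earlier results of these data known, and the chromosome groups after their values were seen.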

Additional observations from a re-analysis of the deposited data

How the results depend on the processing

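The count of called members moved by more than 1.5 times under some alternatives. Where no share of all tested genes is given beside a count, that count cannot be set against a background. A log2 fold change of at least 1.5 left 10 calls from Day 0 to Day 2, 1 from Day 2 to Day 4 and 11 from Day 0 to Day 4 in shSC, 12, 0 and 12 in shCTSL, and 0 between the lines on Day 2 and in the mean of days, since it removes smaller changes. Between the lines, DESeq2 called 2 members on Day 2 and 1 on Day 4 (0.805% and 0.85% of all tested genes, against 0.0644% and 0.0129% in edgeR), and 1 was called on Day 4 without the count filter and with exonic length offsets. With only the compared libraries fitted, 0 were called in shCTSL from Day 2 to Day 4, and 3, 0 and 2 between the lines on Days 0, 2 and 4. The cause was not tested. Without both shCTSL Day 2 libraries, 2 were called between the lines on Day 0 and 6 on Day 4. Of all genes tested in that fit, 1.37% and 5.89% were called, against 0.0386% and 0.0129% with all libraries. With each library left out in turn, shSC had 21 to 30 calls from Day 0 to Day 2, 7 to 13 from Day 2 to Day 4 and 26 to 28 from Day 0 to Day 4, and shCTSL had 28 to 31, 4 to 17 and 25 to 28. Between the lines the ranges were 0 to 2 on Day 0, 0 to 14 on Day 2, 0 to 6 on Day 4, 1 to 5 in the mean of days and 0 to 0 for the difference in change. The replicate numbers did not pair the libraries (same-numbered deviations correlated from -0.47 to 0.26, over 0.1 in 2 of 15 pairs). With the replicate number as a block, 0 members were called between the lines on Day 2 (adjusted p = 0.052 for Zfp951). Of 761 values of named genes under the alternatives, 0 reversed, 27 lost and 8 gained their call. The 6 members that failed the count filter could not be compared at this depth.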
